A study of Mus musculus with 12 samples.

Results

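The AP-1 family comprises the basic leucine zipper proteins that bind DNA as dimers of a Fos and a Jun protein, together with related factors that share their sites. In this data set the family was followed through 9 named genes: the Fos proteins Fos, Fosb, Fosl1 and Fosl2, the Jun proteins Jun, Junb and Jund, and the related factors Atf3 and Maff. A gene counted as measured when the annotation of the array named it for a probe, and its brightest probe stood for it; 8 of the 9 genes had a probe, whereas Fosl2 was named for none of the 25697 probes in the annotation used here and was not analysed. All 8 measured genes entered the tests among 10031 features (genes, or probes without a gene name). The signals came from 12 Illumina MouseRef-8 v2.0 arrays of total RNA from mouse embryonic fibroblasts (MEFs) of the C57BL/6 strain. MEFs of 3 genotypes were given TNF (10 ng/ml, 6 h) or left untreated, which gave 6 groups of 2 arrays: TNF-treated and untreated Rela-/-Relb-/-Rel-/- cells, TNF-treated and untreated Rela-/-Nfkb2-/- cells, and TNF-treated and untreated WT cells. The Rela-/-Relb-/-Rel-/- cells lack all the NFκB subunits that carry an activation domain (RelA, RelB and cRel), while the Rela-/-Nfkb2-/- cells lack RelA and the Nfkb2 product p100 with its processed form p52 but keep the genes of RelB and cRel. MEFs had been prepared from E13.5 embryos and immortalized by the 3T3 protocol, so each genotype may be 1 cell line, and an effect of the deleted genes and a difference between lines cannot be told apart.

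TNF activates the MAP kinases JNK, p38 and ERK alongside NFκB. JNK phosphorylates Jun, ERK and p38 act on the ternary complex factors that sit with SRF on the Fos promoter, and AP-1 dimers then bind the TPA-responsive element (TRE) or the cAMP-responsive element (CRE) of matrix metalloproteinase, cytokine and growth factor genes. Fos is the textbook immediate early gene, whose mRNA usually peaks soon after a stimulus and decays quickly, whereas Fosl1 is itself an AP-1 target and tends to stay up for longer. In fibroblasts AP-1 is best known for its part in the growth response to serum and in the expression of matrix-degrading enzymes.

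The proximal promoters of Fos, Jun and Atf3 are shown because these members passed the test below for a difference between the mutant lines in TNF response. For Jun that call passed in only 9 of 23 alternatives, and median scaling was among those where it was lost. The 300 bases (250 before the annotated start and 50 after it) are from RefSeq, build GRCm38.p6, and 8 of the 9 members matched an entry, Maff with 3 start sites; Fosl1 did not match. Capitals mark matches to the searched motifs on either strand.
Fos (chr12:85473640-85473939, forward strand): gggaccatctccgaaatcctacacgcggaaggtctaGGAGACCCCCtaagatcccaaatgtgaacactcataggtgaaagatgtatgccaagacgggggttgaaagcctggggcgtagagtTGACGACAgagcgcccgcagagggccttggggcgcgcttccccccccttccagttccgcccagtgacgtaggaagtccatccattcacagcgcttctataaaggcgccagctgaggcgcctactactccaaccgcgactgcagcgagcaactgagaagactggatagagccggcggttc
Jun (chr4:95052173-95052472, reverse strand): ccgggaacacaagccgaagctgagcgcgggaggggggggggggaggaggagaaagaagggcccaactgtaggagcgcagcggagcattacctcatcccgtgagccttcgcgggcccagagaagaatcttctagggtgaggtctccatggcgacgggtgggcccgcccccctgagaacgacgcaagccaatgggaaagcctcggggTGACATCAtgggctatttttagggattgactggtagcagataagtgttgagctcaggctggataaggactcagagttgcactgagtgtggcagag
Atf3 (chr1:191183284-191183583, reverse strand): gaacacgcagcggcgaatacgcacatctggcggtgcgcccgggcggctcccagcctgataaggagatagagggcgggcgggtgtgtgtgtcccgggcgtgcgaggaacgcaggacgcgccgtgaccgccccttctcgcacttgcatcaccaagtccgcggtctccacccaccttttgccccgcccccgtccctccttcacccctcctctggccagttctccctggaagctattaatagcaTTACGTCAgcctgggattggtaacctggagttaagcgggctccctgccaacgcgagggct
The motifs were the TRE (TGACTCA), the CRE (TGACGTCA), the CArG box bound by SRF and the κB site, and, chosen after the sequences had been read, the CRE with exactly 1 mismatch, which can overlap other motifs. A CRE with 1 mismatch was found in the promoters of Fos (TGACGACA), Jun (TGACATCA), Atf3 (TTACGTCA) and Maff (TGACATCA), and in 11.0% of all 32851 promoters of the same length. The capitals of the Fos promoter nearest its 5′ end mark a κB match, a motif found in 4.51% of all promoters and also in those of Fosb, Fosl2 and Maff. The full CRE was found in 1 member, Maff, against 1.79% of all promoters. The TRE, present in 5.2% of all promoters, and the CArG box, present in 1.63%, were in none of the members' windows. Bases further upstream than 250 were not searched, so an absence holds for the windows only. All matches are of letters and carry no information on binding in these cells.

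The number of probes above background, that is, at a detection p-value under 0.05, was 11637 to 12599 per array. The Rela probe gave log2 signals of 10.05 to 10.75 in Rela-/-Relb-/-Rel-/- arrays and 10.28 to 10.80 in Rela-/-Nfkb2-/- arrays, against 12.60 to 13.22 in WT arrays. The Relb probe was above background on 1 of 4 Rela-/-Relb-/-Rel-/- arrays and on all 8 others; the Rel probe was above background on none of the 12 arrays, and the Nfkb2 probe, above background on all 12, read 6.97 to 8.57 in Rela-/-Relb-/-Rel-/- arrays, 7.23 to 8.83 in Rela-/-Nfkb2-/- arrays and 8.64 to 10.01 in WT arrays, so that it was no lower in the line that lacks Nfkb2 than in the other mutant line. The position of these 4 probes with respect to the deleted exons is not known here, so they check the labels only in part. Of 11 measured fibroblast markers, 8 were above background on all 12 arrays, against 1 of 6 leukocyte markers (Cd14), 1 of 5 endothelial markers (Kdr) and 1 of 5 epithelial markers (Cdh1). The other 3 fibroblast markers were Thy1, Pdgfrb and Lum. Thy1 had mean log2 signals of 13.651 untreated and 14.387 with TNF in Rela-/-Nfkb2-/- cells, and 4.931 to 5.435 elsewhere. Pdgfrb had 5.843 and 5.715 in Rela-/-Relb-/-Rel-/- cells, and 8.755 to 10.158 elsewhere. The summed raw signal of the 11 was 49770 to 76580 in Rela-/-Relb-/-Rel-/- arrays, 83160 to 116000 in Rela-/-Nfkb2-/- arrays and 47360 to 69250 in WT arrays. The defining leukocyte gene Ptprc and the endothelial genes Pecam1 and Cdh5 were above background on none, and the endothelial gene Tek on 10. The summed raw signal of 5 epithelial markers was 2818 to 4667 in Rela-/-Relb-/-Rel-/- arrays, 523 to 702 in Rela-/-Nfkb2-/- arrays and 422.2 to 612.3 in WT arrays, mostly through Krt8; the part of such differences between lines in the results below was not tested. These are bulk samples, so fewer cells expressing a gene and less RNA per cell cannot be told apart.

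The TNF response of the family differed by genotype. In Rela-/-Relb-/-Rel-/- cells Fos, Fosl1 and Atf3 rose, in Rela-/-Nfkb2-/- cells Fosl1, Jun and Maff rose while Fos fell, and in WT cells no member passed the test. The test was limma's moderated test with Benjamini-Hochberg adjustment over all 10031 features, and a call is an adjusted p under 0.05. In Rela-/-Relb-/-Rel-/- cells 3 of 8 members were higher and 0 lower, beside 1.39% of all features higher and 0.798% lower; in Rela-/-Nfkb2-/- cells 3 of 8 were higher and 1 lower, beside 8.03% and 11.6% of all features. Of the features called in Rela-/-Nfkb2-/- cells 40.8% were higher, and 13.6% under median scaling. In WT cells 0 members passed in limma, beside 0.857% of all features higher and 0.339% lower. Without adjustment 1 of 8 had a limma p under 0.05, for which no share of all features was counted. The methods' t-test gave 1 member without adjustment, beside 1222 of all 10031 features, and 0 members and 0 features with it. The median log2 change of the 8 members was 1.37 in Rela-/-Relb-/-Rel-/- cells, 0.37 in Rela-/-Nfkb2-/- cells and 0.23 in WT cells, while that of all features was -0.015, 0.0003 and -0.038 in the same order of genotypes. P-values measure only the spread between the 2 arrays of a group, pooled over the 6 groups, so a member has the same SE in each genotype. Over all features, the SD of the log2 difference between the 2 arrays was 0.27 and 0.30 in the WT groups. It was 0.46 to 0.67 in the mutant groups, so the tests in WT cells rest partly on that wider spread. The samples are called biological replicates, but whether they were separate cultures is not stated. Fitted on the 4 arrays of 1 line alone, 0 members passed in limma in either mutant line, where the adjusted p of the calls above was 0.0542 to 0.328. In WT cells 1 member passed in such a fit (Junb, limma, adjusted p = 0.0302). The share of all features called in fits of 4 arrays was not counted.

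**Figure D1:**
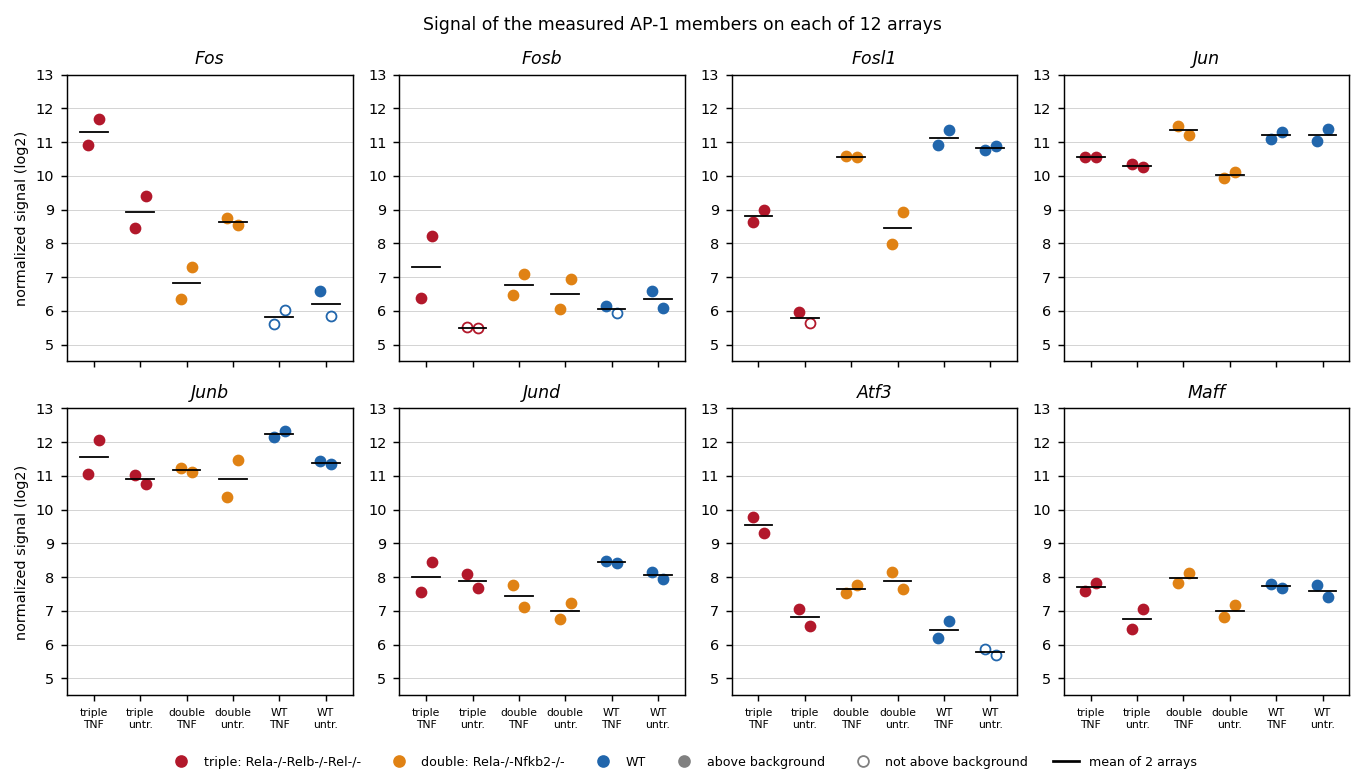
Normalized log2 signal (y axis) of the 8 measured AP-1 members on each of 12 arrays (points) by group (x axis), with the mean of the 2 arrays as a line and open points where a probe was not above background. Fos and Atf3 were brightest in TNF-treated Rela-/-Relb-/-Rel-/- cells (group means 11.31 and 9.54), whereas Fosl1 was brightest in WT cells (11.13 with TNF).

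Fos, on chromosome 12 (85473890 to 85477274, GRCm38.p6), encodes the founding Fos protein, which binds DNA only with a Jun partner. Its log2 signals were 10.92 and 11.69 in TNF-treated Rela-/-Relb-/-Rel-/- cells, against 8.45 and 9.40 in untreated ones. TNF-treated Rela-/-Nfkb2-/- cells had 6.34 and 7.28, against 8.74 and 8.54 in untreated ones. In WT cells they were 5.61 and 6.02 with TNF, neither above background, against 6.58 and 5.84 untreated, of which the first was above background. Both mutant lines thus carried a clear Fos signal before TNF. After 6 h of TNF, the only time measured, it lay above the untreated level in Rela-/-Relb-/-Rel-/- cells and below it in Rela-/-Nfkb2-/- cells. Treated and untreated arrays did not overlap in either line, and earlier changes were not measured. The log2 change with TNF was 2.38 ± 0.44 (SE; 5.21-fold) in Rela-/-Relb-/-Rel-/- cells (limma, adjusted p = 0.0312) and -1.83 ± 0.44 in Rela-/-Nfkb2-/- cells (limma, adjusted p = 0.019). The difference between these responses was 4.21 ± 0.62 (limma, adjusted p = 0.00681). No size is given for the difference of either mutant response from that of WT cells, since Fos was not measured above background in TNF-treated WT cells. The call in Rela-/-Relb-/-Rel-/- cells was lost without TNF-treated replicate 2 or either untreated array of that line (change of 1.90 and adjusted p = 0.189 without untreated replicate 1), and, through the shared spread, without either TNF-treated WT array or untreated WT replicate 2. It was also lost with the deposited normalized values (adjusted p = 0.06), with no filter on dim probes (adjusted p = 0.0563) and in the methods' t-test without adjustment. The call in Rela-/-Nfkb2-/- cells was lost without TNF-treated replicate 1 (change of -1.36; limma, adjusted p = 0.134) or untreated replicate 1 (change of -1.72; adjusted p = 0.0782).

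Fosb, a close relative of Fos on chromosome 7 (19302696 to 19310118), lay near background in most groups. Its log2 signals in Rela-/-Relb-/-Rel-/- cells were 6.38 and 8.22 with TNF, against 5.52 and 5.49 untreated, the untreated pair not above background. They were 6.46 and 7.09 in TNF-treated and 6.05 and 6.94 in untreated Rela-/-Nfkb2-/- cells, and in WT cells 6.15 and 5.95 with TNF and 6.59 and 6.08 untreated. The TNF-treated Rela-/-Relb-/-Rel-/- pair was the most uneven of all, at an SD of 1.30. Its mean was at least 2.61-fold above the untreated one, a bound that sets the unmeasured side at the dimmest signal above background on each array, at an adjusted p of 0.135 in limma and 0.0361 with the replicate number as a block. Each fold given as at least, here and below, is this bound on group means in the main fit. Such a bound takes no account of the spread between arrays or of other processing. Without TNF-treated Rela-/-Relb-/-Rel-/- replicate 1 the call passed in limma (adjusted p = 0.0208).

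Fosl1 encodes Fra-1, a Fos protein without the C-terminal activation domain, and lies on chromosome 19 (5447698 to 5455938). In Rela-/-Relb-/-Rel-/- cells its log2 signals were 8.64 and 8.98 with TNF, against 5.96 and 5.63 untreated, where 1 of the 2 arrays was above background. Those of Rela-/-Nfkb2-/- cells were 10.58 and 10.55 with TNF, against 7.99 and 8.94 untreated. In WT cells they were 10.90 and 11.36 with TNF, against 10.77 and 10.89 untreated. Untreated WT cells therefore already held a high Fosl1 signal, above every array of either mutant line, and both mutant lines climbed toward it with TNF. The log2 change was 3.01 ± 0.30 (8.07-fold) in Rela-/-Relb-/-Rel-/- cells and 2.11 ± 0.30 (4.30-fold) in Rela-/-Nfkb2-/- cells (limma, adjusted p = 0.00221 and 0.0019), against 0.30 ± 0.30 in WT cells (adjusted p = 0.896). The response exceeded that of WT cells by 2.71 ± 0.43 in Rela-/-Relb-/-Rel-/- cells (limma, adjusted p = 0.0261). This difference missed the threshold without any 1 of 9 arrays (each WT array, each TNF-treated Rela-/-Nfkb2-/- array, each untreated Rela-/-Relb-/-Rel-/- array and TNF-treated Rela-/-Relb-/-Rel-/- replicate 2), with an adjusted p of 0.138 at most, without untreated WT replicate 2. It also missed it under normexp (1.84, adjusted p = 0.0615), with no background correction (1.83, adjusted p = 0.0631) and with no filter on dim probes (adjusted p = 0.0515). For Rela-/-Nfkb2-/- cells the excess over WT was 1.81 ± 0.43, at an adjusted p of 0.0529 in limma and 0.0266 with the replicate number as a block. Without untreated Rela-/-Nfkb2-/- replicate 2 it passed (2.31, adjusted p = 0.00837). The responses of the mutant lines differed by 0.91 (95% interval -0.063 to 1.88; limma, adjusted p = 0.272).

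Jun, the main partner of Fos proteins and the substrate that gave JNK its name, lies on chromosome 4 (95049036 to 95052222). Its log2 signals in Rela-/-Relb-/-Rel-/- cells were 10.54 and 10.56 with TNF and 10.36 and 10.25 untreated. Rela-/-Nfkb2-/- cells had 11.47 and 11.21 with TNF, against 9.94 and 10.10 untreated, and WT cells 11.10 and 11.28 with TNF, against 11.04 and 11.38 untreated. Only in Rela-/-Nfkb2-/- cells did the TNF arrays stand clear of the untreated ones by more than 1 log2 unit, which brought Jun to the WT level. The change there was 1.33 ± 0.17 (2.51-fold; limma, adjusted p = 0.00116), against 0.25 ± 0.17 in Rela-/-Relb-/-Rel-/- cells (adjusted p = 0.563) and -0.018 ± 0.17 in WT cells (adjusted p of 1). The response of Rela-/-Nfkb2-/- cells exceeded that of WT cells by 1.34 ± 0.24 (limma, adjusted p = 0.0208), and that of Rela-/-Relb-/-Rel-/- cells lay 1.08 below that of Rela-/-Nfkb2-/- cells (log2 difference of -1.08 ± 0.24; limma, adjusted p = 0.0406). Under median scaling both differences missed the threshold (1.25, adjusted p = 0.0942, and -0.65, adjusted p = 0.324). The first was also lost without replicate 1 of either Rela-/-Nfkb2-/- group, either TNF-treated WT array or untreated WT replicate 2 (adjusted p of 0.0892 at most, without the array named last), and the second without any 1 array other than untreated Rela-/-Nfkb2-/- replicate 2 (adjusted p of 0.147 at most, without TNF-treated Rela-/-Nfkb2-/- replicate 1).

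Junb and Jund, Jun proteins that often oppose Jun in growth control, lie on chromosome 8 (84976909 to 84978748, and 70697739 to 70700616) and passed the test in none of the 11 comparisons. Junb had log2 signals of 11.05 and 12.05 in TNF-treated and 11.04 and 10.77 in untreated Rela-/-Relb-/-Rel-/- cells. It had 11.23 and 11.12 in TNF-treated and 10.38 and 11.47 in untreated Rela-/-Nfkb2-/- cells, and 12.15 and 12.33 in TNF-treated and 11.45 and 11.35 in untreated WT cells. The WT pairs were tight and apart, and the log2 change of 0.84 ± 0.38 (1.79-fold) missed the threshold over all 12 arrays (limma, adjusted p = 0.519); in a fit of the 4 WT arrays alone, Junb was the 1 member that passed (adjusted p = 0.0302). Jund read 7.12 to 8.45 over the TNF-treated mutant arrays and 6.75 to 8.11 over the untreated mutant arrays, against 8.41 and 8.49 in TNF-treated and 7.95 and 8.17 in untreated WT cells. Its log2 change with TNF was 0.12 to 0.45 across the genotypes, with an SE of 0.33 each.

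Atf3, a stress-induced factor of the ATF/CREB family that pairs with Jun proteins and can repress its targets, lies on chromosome 1 (191170296 to 191183333). Its log2 signals in Rela-/-Relb-/-Rel-/- cells were 9.79 and 9.30 with TNF, against 7.07 and 6.56 untreated. Rela-/-Nfkb2-/- cells gave 7.53 and 7.76 with TNF, against 8.16 and 7.64 untreated. In WT cells they were 6.19 and 6.69 with TNF, against 5.88 and 5.70 untreated, the untreated pair not above background. Atf3 thus moved with TNF by a wide margin in Rela-/-Relb-/-Rel-/- cells, while treated and untreated Rela-/-Nfkb2-/- arrays overlapped. The log2 change was 2.73 ± 0.28 (6.63-fold; limma, adjusted p = 0.00221) in Rela-/-Relb-/-Rel-/- cells and -0.25 ± 0.28 in Rela-/-Nfkb2-/- cells (adjusted p = 0.571). In WT cells it was at least 1.49-fold in the main fit, at an adjusted p of 0.471 in limma, and the log2 change was 0.37 to 0.93 over the alternatives. The responses of the mutant lines differed by 2.98 ± 0.39 (limma, adjusted p = 0.00392). No size is given for a difference from the WT response, which was not measured on its untreated side.

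Maff is a small Maf protein, which has a leucine zipper but no activation domain of its own, and lies on chromosome 15 (79346621 to 79359078). Its brighter probe gave 7.60 and 7.83 in TNF-treated and 6.46 and 7.06 in untreated Rela-/-Relb-/-Rel-/- cells. It gave 7.82 and 8.12 in TNF-treated and 6.83 and 7.17 in untreated Rela-/-Nfkb2-/- cells, and 7.81 and 7.68 in TNF-treated and 7.76 and 7.41 in untreated WT cells. In both mutant lines all TNF arrays lay above the untreated ones, near the WT level. The log2 change was 0.97 ± 0.24 (1.96-fold) in Rela-/-Nfkb2-/- cells (limma, adjusted p = 0.0219), and 0.61 under median scaling (adjusted p = 0.24). In Rela-/-Relb-/-Rel-/- cells it was 0.95 ± 0.24, at an adjusted p of 0.087 in limma and 0.0173 with the replicate number as a block. Without untreated Rela-/-Nfkb2-/- replicate 1 or either TNF-treated Rela-/-Nfkb2-/- array, the call in that line was lost (adjusted p = 0.109, 0.0589 and 0.122). The second Maff probe was above background on 0 of 12 arrays and was not used.

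**Figure D2:**
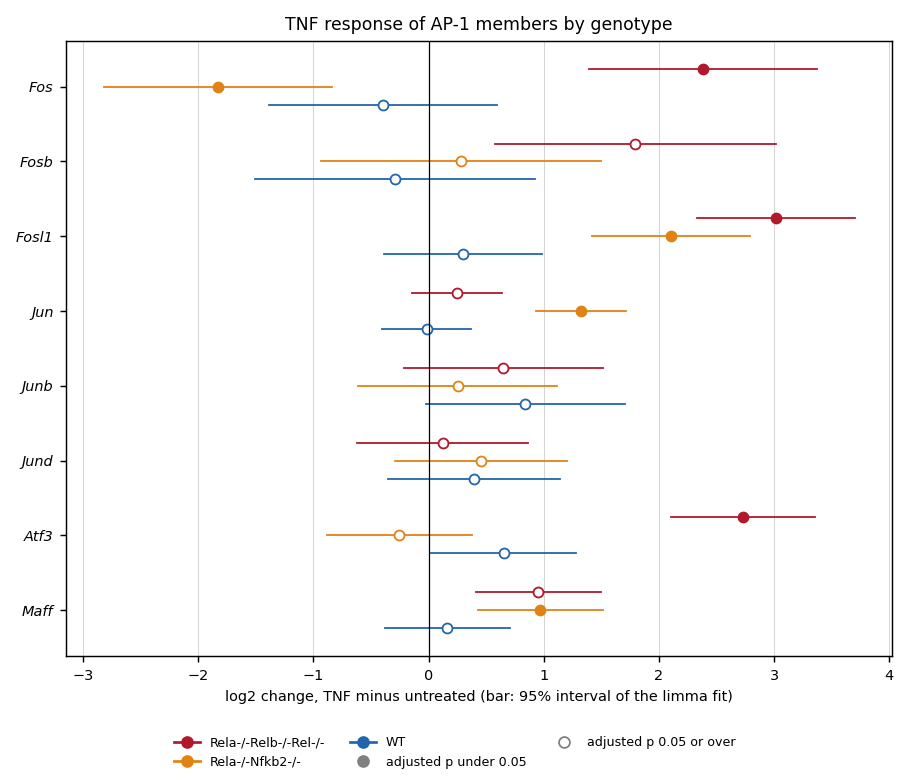
Log2 change with TNF (x axis) of the 8 measured members (y axis) in each genotype, with the 95% interval of the limma fit as a bar and filled points where the adjusted p was under 0.05. Fos changed by 2.38 in Rela-/-Relb-/-Rel-/- cells and -1.83 in Rela-/-Nfkb2-/- cells; bars that reach probes not above background (Fos and Atf3 in WT, Fosb in Rela-/-Relb-/-Rel-/-) rest partly on unmeasured levels.

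Set against each other, the responses gave 1 member higher and 0 lower of 8 for Rela-/-Relb-/-Rel-/- minus WT (Fosl1), beside 0.439% and 0.409% of all features, and 1 higher and 0 lower for Rela-/-Nfkb2-/- minus WT (Jun), beside 1.17% and 2.92% (28.5% of all features called were higher, and 11.6% under median scaling). For Rela-/-Relb-/-Rel-/- minus Rela-/-Nfkb2-/-, Fos and Atf3 were higher and Jun lower, beside 3.65% of all features higher and 1.33% lower (73.3% of those called were higher, and 88.6% under median scaling). With the replicate number as a block, for which the share of all features was not counted, these counts were 3, 2 and 3 members in the order given. With it 5 members passed in the TNF response of Rela-/-Relb-/-Rel-/- cells, again with no share of all features to set beside that count. The first of these counts holds Fos and Atf3, each set against a WT response with 1 side not above background. The comparisons share arrays, so their counts are not independent of each other.

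In untreated cells several members differed between the mutant lines and WT cells, where many other features did as well. Fos and Atf3 were higher, and Fosl1 and Jun lower, in both mutant lines than in WT cells, and Maff was also lower in Rela-/-Relb-/-Rel-/- cells. Untreated Fos exceeded WT by 2.72 ± 0.44 (6.58-fold) in Rela-/-Relb-/-Rel-/- cells and by 2.43 ± 0.44 (5.40-fold) in Rela-/-Nfkb2-/- cells (limma, adjusted p = 0.00111 and 0.00393). Untreated Atf3 was at least 1.93-fold higher in Rela-/-Relb-/-Rel-/- cells and at least 4.09-fold higher in Rela-/-Nfkb2-/- cells than in WT cells (limma, adjusted p = 0.0173 and 0.000623). These bounds hold for the main fit, and over the alternatives the log2 differences were 0.59 to 1.38 and 1.36 to 2.60. Fosl1 showed the widest gap of the family in Rela-/-Relb-/-Rel-/- cells. Its log2 difference from WT was -5.03 ± 0.30 (32.8-fold lower) in Rela-/-Relb-/-Rel-/- cells and -2.37 ± 0.30 (5.17-fold lower) in Rela-/-Nfkb2-/- cells (limma, adjusted p = 1.94e-06 and 0.000523). The first value rests on a mutant pair with 1 of 2 arrays above background, and was -5.65 to -4.00 over the alternatives. Jun lay 0.91 ± 0.17 below WT in Rela-/-Relb-/-Rel-/- cells (log2 difference of -0.91; limma, adjusted p = 0.00282) and fell short of it by more in Rela-/-Nfkb2-/- cells (log2 difference of -1.20 ± 0.17; limma, adjusted p = 0.00109). Maff had a log2 difference of -0.83 ± 0.24 in Rela-/-Relb-/-Rel-/- cells (limma, adjusted p = 0.0235). In all, 2 members were higher and 3 lower of 8 in Rela-/-Relb-/-Rel-/- cells, beside 17.2% and 20.5% of all features, and 2 were higher and 2 lower in Rela-/-Nfkb2-/- cells, beside 9.85% and 10.6%. The count in Rela-/-Relb-/-Rel-/- cells was 3 in place of 5 without untreated Rela-/-Relb-/-Rel-/- replicate 1 or untreated WT replicate 1, where Atf3 and Maff missed the threshold, and Atf3 also missed it without untreated WT replicate 2 (adjusted p = 0.0984). Maff also missed it under median scaling (adjusted p = 0.0629), and Atf3 under normexp and with no background correction (0.60 and 0.59, adjusted p = 0.05 and 0.0512).

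Between the untreated mutant lines, Fosl1 and Atf3 were lower in Rela-/-Relb-/-Rel-/- than in Rela-/-Nfkb2-/- cells, by log2 differences of -2.66 ± 0.30 and -1.09 ± 0.28 (limma, adjusted p = 0.000151 and 0.0148). Fos did not pass, at 0.28 (95% interval -0.71 to 1.28; limma, adjusted p = 0.676). Thus 0 of 8 members were higher and 2 lower, beside 15.8% and 17.8% of all features. Without adjustment 3 of the 8 had a limma p under 0.05, for which no share of all features was counted. Without untreated Rela-/-Nfkb2-/- replicate 1 or untreated Rela-/-Relb-/-Rel-/- replicate 2, Fosl1 was the 1 member that passed, and without either TNF-treated Rela-/-Relb-/-Rel-/- array 4 members did.

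After 6 h of TNF, Fos and Atf3 were higher and Fosl1 and Jun lower in Rela-/-Relb-/-Rel-/- cells than in WT cells. TNF-treated Rela-/-Relb-/-Rel-/- cells held at least 40.0-fold more Fos signal than TNF-treated WT cells (limma, adjusted p = 1.18e-05) and 8.59-fold more Atf3 signal (log2 difference of 3.10 ± 0.28; adjusted p = 2.51e-05). The bound for Fos holds for the main fit, and over the alternatives its log2 difference was 4.45 to 6.11. Fosl1 and Jun were lower there, at log2 differences of -2.32 ± 0.30 and -0.64 ± 0.17 (limma, adjusted p = 0.000294 and 0.0151). The Jun call was lost under median scaling (-0.37, adjusted p = 0.246) and without TNF-treated Rela-/-Relb-/-Rel-/- replicate 1 or TNF-treated WT replicate 2 (adjusted p = 0.0526 and 0.0979). In TNF-treated Rela-/-Nfkb2-/- cells Atf3 was the 1 member that passed, at 1.20 ± 0.28 above WT (2.30-fold; limma, adjusted p = 0.0126), and Fosl1 had a log2 difference of -0.56 (95% interval -1.25 to 0.12) and Jun of 0.15 (95% interval -0.24 to 0.54). Members higher and lower numbered 2 and 2 of 8 in Rela-/-Relb-/-Rel-/- cells, beside 19.8% and 21.7% of all features, and 1 and 0 in Rela-/-Nfkb2-/- cells, beside 10.0% and 13.9%. The Rela-/-Nfkb2-/- count depended on the scaling: under median scaling Atf3 did not pass, and Junb and Jund passed as lower. It was 0 without TNF-treated Rela-/-Nfkb2-/- replicate 2 or TNF-treated WT replicate 1, 2 without either untreated Rela-/-Nfkb2-/- array, and 3 without either TNF-treated Rela-/-Relb-/-Rel-/- array.

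**Figure D3:**
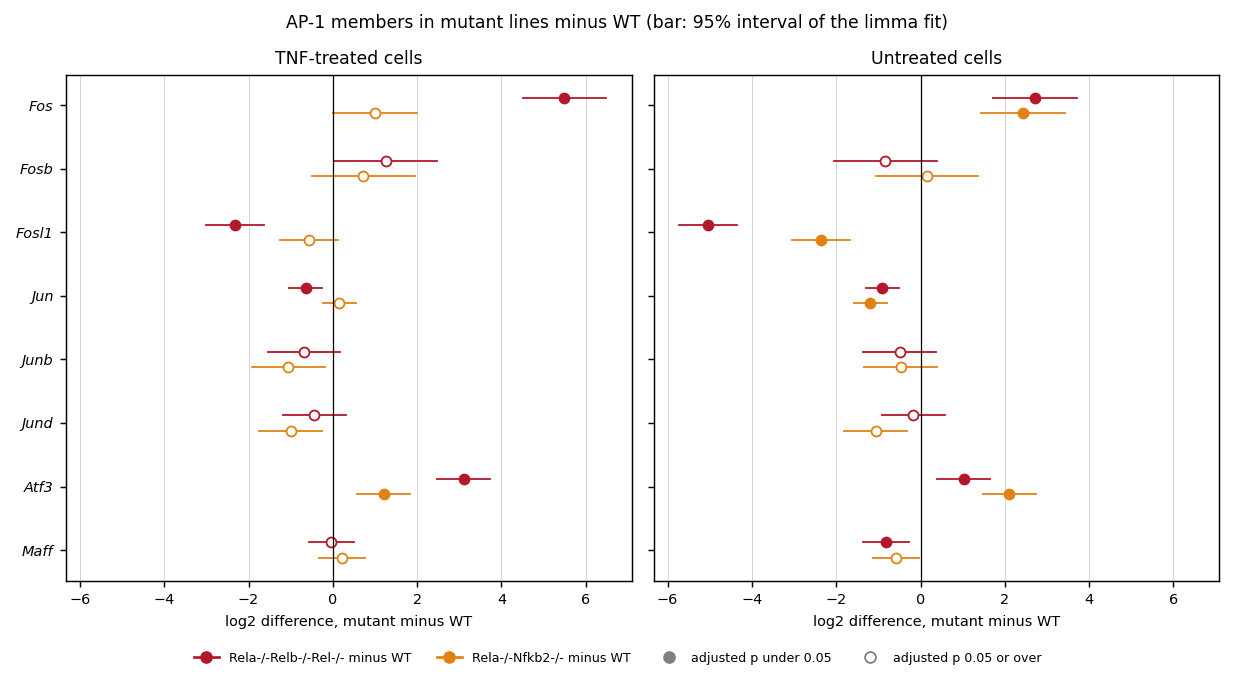
Log2 difference from WT cells (x axis) of the 8 measured members (y axis) in each mutant line, in TNF-treated cells (left) and untreated cells (right), with the 95% interval of the limma fit as a bar and filled points where the adjusted p was under 0.05. Fosl1 in Rela-/-Relb-/-Rel-/- cells lay at -2.32 with TNF and at -5.03 untreated, where 1 of 2 arrays of that line was above background. Points against a WT group not above background (Fos with TNF, Atf3 untreated) or of a mutant group not above background (Fosb untreated in Rela-/-Relb-/-Rel-/-) rest partly on unmeasured levels.

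The order of levels over the 6 groups was not the same for Fos and Fosl1. Mean log2 Fos signal was highest in TNF-treated Rela-/-Relb-/-Rel-/- cells (11.31 ± 0.54, SD, n = 2), followed by the untreated cells of that line (8.93 ± 0.67), untreated Rela-/-Nfkb2-/- cells (8.64 ± 0.14) and TNF-treated Rela-/-Nfkb2-/- cells (6.81 ± 0.67). Untreated WT cells (6.21 ± 0.52) and TNF-treated WT cells (5.81 ± 0.29) came last, and the untreated mutant groups overlapped, as did the WT groups. Mean Fosl1 signal was highest in TNF-treated WT cells (11.13 ± 0.33) and lowest in untreated Rela-/-Relb-/-Rel-/- cells (5.80 ± 0.23). Over the 12 arrays log2 signal spanned 6.08 units for Fos, 5.73 for Fosl1 and 4.09 for Atf3, against 1.54 to 2.73 for the other 5 members.

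The genes whose centred log2 signals over the 12 arrays lay closest to each member were found by the root mean square (RMS) difference, as a description. For Fosl1 they were Foxs1 (0.45), Errfi1 (0.64) and Oaf (0.66), for Atf3 they were Tnfrsf4 (0.51), Dnd1 (0.58) and Nhlrc1 (0.70), and for Fosb they were Dusp1 (0.40), Map2k1 (0.46) and Arih1 (0.48). For Fos they were Xkr8 (0.80), Lpar2 (0.86) and Foxq1 (0.86), against an RMS of 1.93 for Fos about its own mean. Differences grow with a gene's own spread (an RMS of 0.72 for Fosb about its mean), so they do not rank the members. Jun lay nearest to Fbl (0.19), Cpsf4 (0.19) and Snrnp70 (0.20), Junb to Baz2a (0.24), Cebpb (0.31) and Etv3 (0.32), Jund to Bsdc1, Nacc1 and Capns1 (0.26 each), and Maff to Tmcc2 (0.23), Med18 (0.25) and Rtn4 (0.26). The 2 arrays of a group share line and treatment, so closeness takes in differences between lines and between treatments together, and the part of each was not tested.

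Upstream of AP-1, 22 of 30 listed genes of the MAP kinase cascades and ternary complex factors were tested. With TNF, 1 was higher and 0 lower in Rela-/-Relb-/-Rel-/- cells (4.5% and 0.0% of the list, beside 1.39% and 0.798% of all features). In Rela-/-Nfkb2-/- cells 3 were higher and 4 lower (13.6% and 18.2% of the list, beside the 8.03% and 11.6% of all features given above). In WT cells 0 passed in limma and 5 had an unadjusted p under 0.05, a level for which no share of all features was counted. With the replicate block 1 passed in WT cells and 11 in Rela-/-Nfkb2-/- cells (6 higher, 5 lower), and the share of all features was not counted. The 1 gene in Rela-/-Relb-/-Rel-/- cells was Srf, the serum response factor that drives Fos transcription, at 0.93 ± 0.15 (limma, adjusted p = 0.0172); it is named after its value was seen. The p38 isoform gene Mapk11 in Rela-/-Nfkb2-/- cells rose by 1.17 ± 0.15 and the p38 activator gene Map2k3 by 1.15 ± 0.15 (limma, adjusted p = 0.0011 and 0.00128). The p38 isoform gene Mapk13 fell there, at a log2 change of -2.50 ± 0.16 with 1 of 2 TNF arrays above background, as did Rps6ka5, a kinase downstream of p38 and ERK, at -2.12 ± 0.29 (limma, adjusted p = 2.96e-05 and 0.00164). Median log2 changes of the list were 0.18, 0.15 and 0.014 in Rela-/-Relb-/-Rel-/-, Rela-/-Nfkb2-/- and WT cells.

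Among other leucine zipper factors that pair with AP-1 proteins or share their sites, 14 of 24 were tested. With TNF, 1 was higher and 1 lower in Rela-/-Nfkb2-/- cells (7.1% of the list each, beside 8.03% and 11.6% of all features). In Rela-/-Nfkb2-/- cells Mafg, a small Maf protein like Maff, rose by 0.69 ± 0.17 (limma, adjusted p = 0.0199), and Batf3, a partner of Jun proteins in lymphoid and dendritic cells, was lower (limma, adjusted p = 0.00645) and not above background with TNF, where the bound allowed no fold. None passed in limma in Rela-/-Relb-/-Rel-/- cells or in WT cells, where 1 and 4 had an unadjusted p under 0.05. For that unadjusted level no share of all features was counted. With the replicate block 6 passed in Rela-/-Nfkb2-/- cells (4 higher, 2 lower) and 1, Mafg, in WT cells (limma, adjusted p = 0.0486). The share of all features called with the block was not counted.

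Of these 3 lists, genes long known as AP-1 targets had the most calls with TNF in each genotype. Of 25 listed, 21 were tested, and after TNF the numbers higher and lower were 6 and 0 in Rela-/-Relb-/-Rel-/- cells, 16 and 1 in Rela-/-Nfkb2-/- cells, and 8 and 0 in WT cells, beside 1.39% and 0.798%, 8.03% and 11.6%, and 0.857% and 0.339% of all features. Many of these genes are also NFκB targets, and the list was made with earlier results of these data known. Mmp10 (stromelysin 2) changed by 3.91 ± 0.34 in Rela-/-Nfkb2-/- cells and 5.19 ± 0.34 in WT cells, where 1 of 2 untreated arrays was above background (limma, adjusted p = 0.000145 and 0.000241), and Mmp3 (stromelysin 1) by 1.70 ± 0.36 and 5.09 ± 0.36 (limma, adjusted p = 0.0124 and 0.000285). In Rela-/-Relb-/-Rel-/- cells Mmp3 changed by 0.077 ± 0.36 (adjusted p = 0.97) and Mmp10 was above background on 1 of 4 arrays. The 6 genes that rose in that line, named after their values were seen, were Ptgs2 (at least 5.33-fold), Hbegf (log2 change of 1.90 ± 0.18), Cd44 (1.82 ± 0.22), Plaur (1.59 ± 0.33), Ccl2 (1.51 ± 0.25, with 1 of 2 untreated arrays above background) and Il11 (1.44 ± 0.27), at adjusted p of 0.00182 to 0.0471 in limma. Csf2, the cytokine gene for GM-CSF, was at least 27.4-fold higher with TNF in Rela-/-Nfkb2-/- cells and changed by 4.59 ± 0.29 in WT cells (limma, adjusted p = 1.13e-05 and 0.000241), and was not above background in Rela-/-Relb-/-Rel-/- cells. Mmp13 (collagenase 3) fell in Rela-/-Nfkb2-/- cells, at -1.54 ± 0.44, and rose in WT cells by 4.71 ± 0.44 (limma, adjusted p = 0.0407 and 0.00126). The median log2 change of the list was 0.57 in Rela-/-Relb-/-Rel-/- cells, 1.70 in Rela-/-Nfkb2-/- cells and 0.56 in WT cells.

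**Figure D4:**
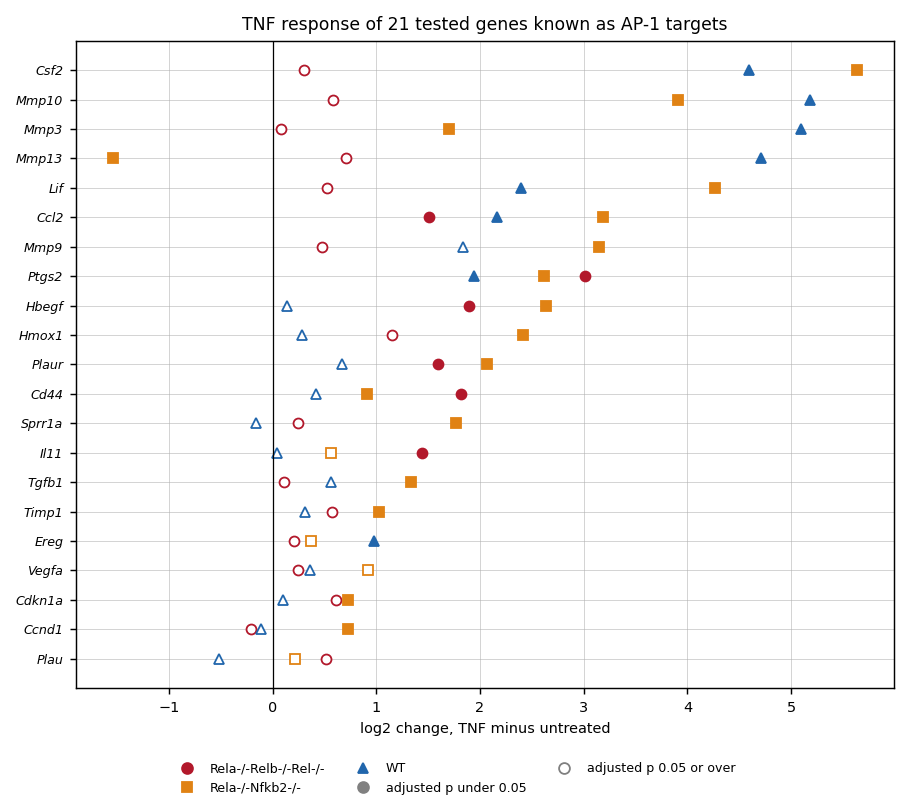
Log2 change with TNF (x axis) of the 21 tested genes known as AP-1 targets (y axis, ordered by their highest change), with 1 point per genotype, filled where the limma adjusted p was under 0.05. In Rela-/-Relb-/-Rel-/- cells, where Fos, Fosl1 and Atf3 rose, 6 genes were filled to the right of 0, against 16 in Rela-/-Nfkb2-/- cells and 8 in WT cells; points of probes not above background in 1 or both groups (Ptgs2, Mmp10, Plau, Sprr1a, Csf2 and Ereg in Rela-/-Relb-/-Rel-/-, Csf2 and Ereg in Rela-/-Nfkb2-/-, Ereg and Sprr1a in WT) rest partly on unmeasured levels.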

How the data were processed

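Gene expression was measured on 12 arrays, whose groups and replicate numbers came from the labels. For every probe and array the authors deposited a bead intensity (raw signal, exported from GenomeStudio) with its detection p-value and, in a second table, intensities that were background-subtracted and quantile-normalized; a service company did the hybridisation and processing. All per-sample columns were used (0 left out). Of 25697 probes, the platform annotation gave 1 gene symbol for 23978 and none for 1719.

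From the deposited intensity, log2 signals were computed in R 4.3.3 with limma 3.58.1: neqc (background from the detection p-values, offset of 16, quantile normalization), then a filter that kept 13387 probes with detection p under 0.05 in both replicates of any group, and the brightest probe per gene (9251 genes and 780 unnamed probes). Quantile normalization removes shifts shared by most genes, and the offset shrinks ratios of dim probes. The model had a mean for each of the 6 groups over all 12 arrays (6 residual and 2.92 prior degrees of freedom) with Benjamini-Hochberg adjustment within each comparison. The scripts were tested on simulated data with known changes. The number of arrays limits the precision.

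Equal replicate numbers were treated as pairs only in the fits with a replicate block. Within a genotype, arrays with the same number departed from their group means in the same way (r = 0.696 in Rela-/-Relb-/-Rel-/-, 0.671 in Rela-/-Nfkb2-/- and 0.315 in WT). Same numbers also went together between the mutant lines (r = 0.62 to 0.845) but not between either mutant line and WT (r = -0.185 to 0.002). For TNF responses and their differences the block was set within each genotype. For comparisons of untreated or of TNF-treated genotypes it was 1 replicate effect shared by all 3 genotypes, WT included. The labels do not state a pairing, and the main fit has no block.

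The members, gene lists and tests were chosen with earlier results of these data known. The text names all 9 members, up to 4 genes of each list with the largest change among those passing in a TNF response, with Srf and the targets that rose in Rela-/-Relb-/-Rel-/- cells named after their values were seen, and the 3 genes closest to each member. Alternatives covered background, offset, scaling, filter, probe choice, variance model, samples in the fit, the deposited normalized values, the replicate block, the methods' t-test and leaving out each array. Fosl2 was not analysed here.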

Additional observations from a re-analysis of the deposited data

Results flagged for a closer look

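The TNF response differed between genotypes, by a test of the difference itself in limma, for 3 members between the mutant lines and for 1 member between each mutant line and WT. Between Rela-/-Relb-/-Rel-/- and Rela-/-Nfkb2-/- cells the log2 response differed by 4.21 for Fos (adjusted p = 0.00681), by 2.98 for Atf3 (adjusted p = 0.00392) and by -1.08 for Jun (adjusted p = 0.0406). The response of Rela-/-Relb-/-Rel-/- cells exceeded that of WT cells by 2.71 for Fosl1 (adjusted p = 0.0261), and that of Rela-/-Nfkb2-/- cells exceeded it by 1.34 for Jun (adjusted p = 0.0208). Between the mutant lines, Fos and Atf3 passed in 22 of 22 alternatives each and Jun in 9 of 23. Against WT, Fosl1 passed in 10 of 22 and Jun in 16 of 23, so these and the Jun difference between mutant lines depended on the arrays and settings used. Fos in Rela-/-Nfkb2-/- cells fell with TNF while Jun and Fosl1 rose there. What these differences come from was not tested, and line and genotype cannot be told apart.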

How the results depend on the processing

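Of 2108 member values computed under 26 alternatives, 1963 kept their side of the threshold, 100 lost a call and 45 gained one. The sign differed from that of the main value in 40, of which 0 were called in either fit. Numbers of members that passed are given here, with the main count in brackets. Leaving out 1 array at a time gave, for the TNF response, 2 to 4 (3) in Rela-/-Relb-/-Rel-/- cells, 2 to 4 (4) in Rela-/-Nfkb2-/- cells and 0 to 0 (0) in WT cells. It gave 2 to 3 (3) for the difference in response between the mutant lines, 0 to 2 (1) for that of either mutant line from WT, 3 to 5 (5) for untreated Rela-/-Relb-/-Rel-/- against WT, 4 to 5 (4) for untreated Rela-/-Nfkb2-/- against WT, 1 to 4 (2) between untreated mutant lines, 3 to 5 (4) for TNF-treated Rela-/-Relb-/-Rel-/- against WT and 0 to 3 (1) for TNF-treated Rela-/-Nfkb2-/- against WT. Detection on all 12 arrays, which left 4 members to test, gave 0 for the Rela-/-Relb-/-Rel-/- TNF response and its differences from both other genotypes, 2 for the Rela-/-Nfkb2-/- TNF response, 2 and 1 for untreated Rela-/-Relb-/-Rel-/- and Rela-/-Nfkb2-/- against WT, 0 between untreated mutant lines, and 1 and 0 for the TNF-treated lines against WT. Fits on the compared groups alone gave 0 for the TNF response of each mutant line, 1 (Junb) for WT, 0 for Rela-/-Nfkb2-/- minus WT, 1 between untreated mutant lines and 3 for TNF-treated Rela-/-Nfkb2-/- against WT. The replicate block gave 5 for the Rela-/-Relb-/-Rel-/- response, 3 and 2 for its and the Rela-/-Nfkb2-/- difference from WT, and changed no other call of a member. Neither for the block nor for the compared groups alone was the share of all features counted. The difference of the Rela-/-Nfkb2-/- response from WT was 0 under median scaling and 2 under normexp, no background correction, an offset of 50 (limma's neqc) or a trended robust variance; that of Rela-/-Relb-/-Rel-/- was 2 under the offset of 50 and 0 with no filter, and under normexp or no background correction Atf3 took the place of Fosl1. TNF-treated Rela-/-Nfkb2-/- against WT was 2 under median scaling, normexp or no background correction. Under median scaling the median log2 change of all features was -0.28 in the Rela-/-Nfkb2-/- TNF response, -0.23 in the WT one and 0.02 in the Rela-/-Relb-/-Rel-/- one. In the main fit it was 0.0003, -0.038 and -0.015 in the same order. The methods' t-test, run on comparisons of 2 groups, gave without adjustment 2 for the Rela-/-Nfkb2-/- response, 1 for WT, 3 for untreated Rela-/-Relb-/-Rel-/- against WT, 1 between untreated mutant lines and 2 for TNF-treated Rela-/-Nfkb2-/- against WT. Features under 0.05 without adjustment numbered 1731, 1222, 3872, 2505 and 2932 of 10031, in the same order. After Benjamini-Hochberg the t-test gave 1 member (Fosl1) for untreated Rela-/-Relb-/-Rel-/- against WT, beside 1392 features, and 0 members elsewhere. Apart from fits on the compared groups alone and that adjusted t-test, the TNF calls of Fosl1 in both mutant lines, Jun in Rela-/-Nfkb2-/- cells and Atf3 in Rela-/-Relb-/-Rel-/- cells passed under each alternative that tested them. The causes of these shifts were not tested, apart from the fewer members or samples that an alternative left.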
